A study of Mus musculus with 6 samples.

Results

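The 9 genes followed here belong to the transforming growth factor beta (TGF-beta) and bone morphogenetic protein (BMP) pathways. RNA labelled as mammary gland was measured. The genes are the ligands Tgfb1, Tgfb2 and Tgfb3, the receptors Tgfbr1, Tgfbr2 and Tgfbr3, the BMP ligands Bmp4 and Bmp7, and the BMP target Id1. They were found by the RefSeq accession that each array probe carries, which gave 13 probes for these 9 genes out of 39429 probes and 20832 named genes on the array. The study compared 3 female Trp-53 knockout mice given a high-fat diet (HFD) with 3 female Trp-53 knockout mice given a control diet (CD), each measured on its own single-colour (Cy3) array. All 6 mice lacked Trp-53, and no wild-type mouse is among them. Feeding began at 3 weeks of age and lasted 5 weeks, and the glands were taken at 8 weeks. The labels give the glands as the tissue, while the sample descriptions speak of mammary epithelial cells.

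TGF-beta ligands are secreted in a latent form, held in the matrix by latent TGF-beta binding proteins and released by proteases, thrombospondin or integrins of the αv family. The free ligand joins TGFBR2, which phosphorylates TGFBR1. Betaglycan, the product of Tgfbr3, presents TGF-beta 2 in particular to these kinases. Activated TGFBR1 signals through SMAD2 and SMAD3, and BMP ligands, through their own receptors, signal through SMAD1, SMAD5 and SMAD9 and switch on the Id genes. In the mammary gland TGF-beta restrains ductal growth and branching, and BMPs take part in signalling between stroma and epithelium.

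Tgfb2 and Tgfbr2 are the ligand and the receptor for which both probes set the diets apart, in opposite directions, and the stretches before their start sites are shown for that reason. They are the 250 bases before the start, as RefSeq gives it on GRCm38.p6, a later build than that of the array. Capitals mark 3 letter patterns: CACGTG, the E-box bound by MYC with MAX and by other factors of that class, shown because the study's title concerns MYC; TATAAA, read on the printed strand; and CAGAC or its reverse complement GTCTG, the core that SMAD3 and SMAD4 bind.
Tgfb2 (chr1:186705990-186706239, minus strand): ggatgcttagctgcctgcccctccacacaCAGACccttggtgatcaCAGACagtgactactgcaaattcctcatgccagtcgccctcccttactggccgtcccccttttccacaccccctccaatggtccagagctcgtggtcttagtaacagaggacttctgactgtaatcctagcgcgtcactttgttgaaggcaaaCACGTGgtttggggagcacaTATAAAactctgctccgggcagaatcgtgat
Tgfbr2 (chr9:116175364-116175613, minus strand): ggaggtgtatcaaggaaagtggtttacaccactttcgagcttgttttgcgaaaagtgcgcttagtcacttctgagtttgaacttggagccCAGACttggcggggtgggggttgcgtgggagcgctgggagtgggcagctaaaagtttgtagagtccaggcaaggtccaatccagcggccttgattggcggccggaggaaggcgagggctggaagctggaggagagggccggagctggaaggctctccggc
The Tgfb2 window held 1 CACGTG, whose first base lies 51 bases before the start, 1 TATAAA at 31 bases and 2 CAGAC cores. The Tgfbr2 window held 1 CAGAC core and neither of the other patterns. Of 32851 promoter windows of this length, 6.02% held CACGTG, 7.59% TATAAA and 42.2% CAGAC or GTCTG. Windows were at hand for 5 of the 9 genes, and of these Tgfb2 and Bmp4 held CACGTG. A match of letters is a description of the window and not a measured binding site.

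Each level below is the log2 ratio of the processed signal to the 75th percentile of its array. A difference is the high-fat mean minus the control mean on that log2 scale, with n = 3 mice per diet, labelled as biological replicates. Between 27202 and 29409 probes lay well above background on each array, no probe was saturated, and the number of arrays limits the precision. The arrays sat on 3 slides. Only 1 slide carried mice of both diets, namely control replicate 1 beside high-fat replicates 2 and 3. The other slides carried high-fat replicate 1 and control replicates 2 and 3, and a fit with slide as a block takes its estimate from the shared slide alone. Every within-slide value below thus rests on control replicate 1 as the only control. The SE of that fit also draws on the spread between control replicates 2 and 3. On the first principal component, with 47.4% of the variance, control replicate 1 (0.40) and high-fat replicate 3 (7.65) took middle scores, the other high-fat arrays scored -62.2 and -54.7, and the other control arrays 53.7 and 55.1. Over the 28687 probes tested, 5 passed an adjusted p of 0.05 in limma (0.0174%), all lower under the high-fat diet.

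None of the 12 tested probes of the 9 genes passed. The last, a second probe of Bmp4, never stood well above background and was not tested. The adjusted p of the 12 ran from 0.151 to 0.986. At an unadjusted p under 0.05, 3 probes were higher (Tgfb2 on both probes, Tgfb3) and 3 lower (Tgfbr2 on both probes, Tgfbr3), against 13.8% of all probes tested in either direction, 6.77% higher and 6.99% lower. On these same 6 probes the arrays of the diets did not overlap, which was so for 17.5% of all probes tested (9.25% with high-fat above and 8.22% with high-fat below). Counted by gene on the brighter probe, that is 4 of 9. In such bulk RNA, fewer cells of a type and less RNA per cell cannot be told apart.

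**Figure D1:**
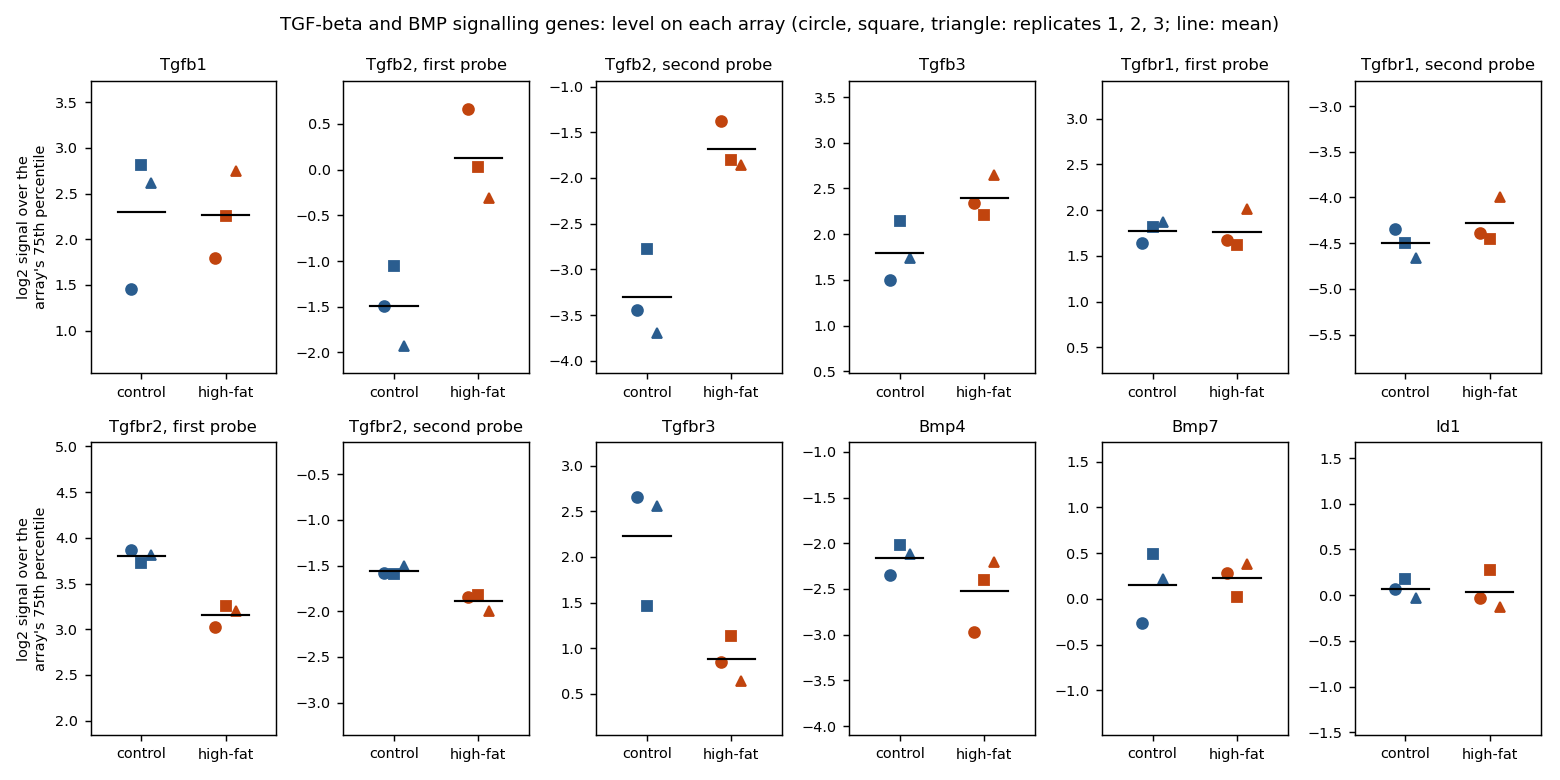
Level of each tested probe on each array (y axis, log2 signal over the array's 75th percentile; every panel spans the same number of log2 units) under control (blue) and high-fat diet (orange), with circles, squares and triangles for replicates 1, 2 and 3 and a line at the mean. The high-fat points lie above all control points for Tgfb2 and Tgfb3, below them for Tgfbr2 and Tgfbr3, and overlap with them for Tgfb1, Tgfbr1, Bmp4, Bmp7 and Id1.

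Among the ligands, Tgfb2 (NM_009367), the isoform that depends most on betaglycan for access to its receptors, showed the widest separation. On its brighter probe the level was 0.67, 0.02 and -0.31 on high-fat replicates 1 to 3 and -1.50, -1.05 and -1.93 on control replicates 1 to 3. Every high-fat array stood above every control array, with 0.74 between the nearest. The means were 0.13 ± 0.50 and -1.49 ± 0.44 (SD, n = 3 each), a difference of 1.62 (SE 0.32, 95% interval 0.84 to 2.39), or 3.07-fold, with an adjusted p of 0.205 in limma. The second probe gave -1.38, -1.80 and -1.86 under high-fat and -3.44, -2.78 and -3.70 under control diet. It differed by 1.63 (SE 0.27, 95% interval 0.98 to 2.28, adjusted p = 0.151 in limma), or 3.09-fold, so both probes told the same size. By p they ranked 272nd and 143rd of 28687 probes. Within the shared slide the probes differed by 1.35 (SE 0.43) and 1.61 (SE 0.43).

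Tgfb3 (NM_009368), an isoform known in the gland for its rise at involution, was spotted 10 times on each array, and the SD between spots of an array was 0.03 to 0.05. Its level was 2.34, 2.21 and 2.65 on high-fat replicates 1 to 3 and 1.50, 2.14 and 1.74 on control replicates 1 to 3. The diets were apart by only 0.07, between high-fat replicate 2 and control replicate 2. That gap is small beside the SD between arrays of a diet, 0.23 for high-fat and 0.32 for control. The means of 2.40 ± 0.23 and 1.79 ± 0.32 (SD, n = 3 each) differed by 0.60 (SE 0.21, 95% interval 0.10 to 1.11), or 1.52-fold, with an adjusted p of 0.335 in limma. Within the shared slide, where the lowest array is the only control, the difference was 0.93.

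Tgfb1 (NM_011577), the most widely expressed isoform, did not sort by diet. The level was 1.79, 2.26 and 2.75 on high-fat replicates 1 to 3 and 1.45, 2.81 and 2.62 on control replicates 1 to 3. Control replicate 1 was the lowest array and control replicate 2 the highest. With 10 spots per array, 1 of them unusable on high-fat replicate 3, and an SD between spots of 0.03 to 0.05, this spread lay between arrays and not between spots. The difference was -0.03 (SE 0.41, 95% interval -1.03 to 0.97, adjusted p = 0.978 in limma). The interval leaves room for a change of about 1 in either direction. Within the shared slide, where the lowest array is the only control, Tgfb1 differed by 1.05 (SE 0.27). The difference was -0.45 without control replicate 1 and 0.23 without control replicate 2.

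Taken within each array, the log2 ratio of Tgfb2 to Tgfb3 differed by 1.01 between diets and did not overlap, with p = 0.1 in a two-sided exact permutation test. That is the smallest p that 3 mice against 3 can give, and it was 0.3 after adjustment over the 9 ratios compared. The log2 ratio of Tgfb2 to Tgfb1 differed by 1.65 and overlapped between diets (exact permutation p = 0.2, two-sided). Such ratios speak of unequal change within an array, and the ratios were chosen after the values were seen.

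Of the receptors, Tgfbr2 and Tgfbr3 were lower on every high-fat array and Tgfbr1 overlapped between diets. Tgfbr2 (NM_009371) is the type II kinase that binds TGF-beta, and its arrays lay close together within each diet. Its brighter probe read 3.03, 3.25 and 3.20 on high-fat replicates 1 to 3 and 3.86, 3.72 and 3.81 on control replicates 1 to 3. All high-fat arrays were lower, by at least 0.47. The means of 3.16 ± 0.12 and 3.80 ± 0.07 (SD, n = 3 each) differed by -0.64 (SE 0.12, 95% interval -0.93 to -0.34), or 1.56-fold lower, with an adjusted p of 0.196 in limma. On the second probe the level was -1.84, -1.82 and -2.00 under high-fat and -1.58, -1.60 and -1.51 under control diet. It too was lower on every high-fat array, with a difference of -0.32 (SE 0.12, 95% interval -0.60 to -0.04, adjusted p = 0.342 in limma), or 1.25-fold lower. The log2 ratio of the brighter to the second probe differed by -0.32 between diets, with no overlap (exact permutation p = 0.1, two-sided, 0.3 adjusted over the 9 ratios). Within the shared slide they differed by -0.64 (SE 0.16) and -0.32 (SE 0.18). After normexp background correction, scaled to the 75th percentile, the second probe's difference was -0.06, where the median of all probes was 0.31.

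Tgfbr3 (NM_011578), betaglycan, had the largest lower value among the 9 genes. The level was 0.85, 1.14 and 0.65 on high-fat replicates 1 to 3 and 2.66, 1.46 and 2.56 on control replicates 1 to 3. High-fat arrays all lay below control arrays, with control replicate 2 closest to them. The means of 0.88 ± 0.25 and 2.23 ± 0.66 (SD, n = 3 each) differed by -1.35 (SE 0.34, 95% interval -2.17 to -0.53), or 2.55-fold lower, with an adjusted p of 0.261 in limma. Within the shared slide, where the highest array is the only control, it differed by -1.77, and without control replicate 2 by -1.73.

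Tgfbr1 (NM_009370), the type I kinase, lay at 1.67, 1.62 and 2.01 on high-fat replicates 1 to 3 and at 1.64, 1.81 and 1.87 on control replicates 1 to 3. The diets overlapped, and the difference was -0.01 (SE 0.15, 95% interval -0.38 to 0.36). Its dimmer second probe differed by 0.22 (SE 0.17, 95% interval -0.19 to 0.64) and overlapped as well, with adjusted p of 0.986 and 0.552 in limma. The log2 ratio of Tgfbr2 to Tgfbr1 differed by -0.63 between diets without overlap (exact permutation p = 0.1, two-sided, 0.3 adjusted over the 9 ratios).

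**Figure D2:**
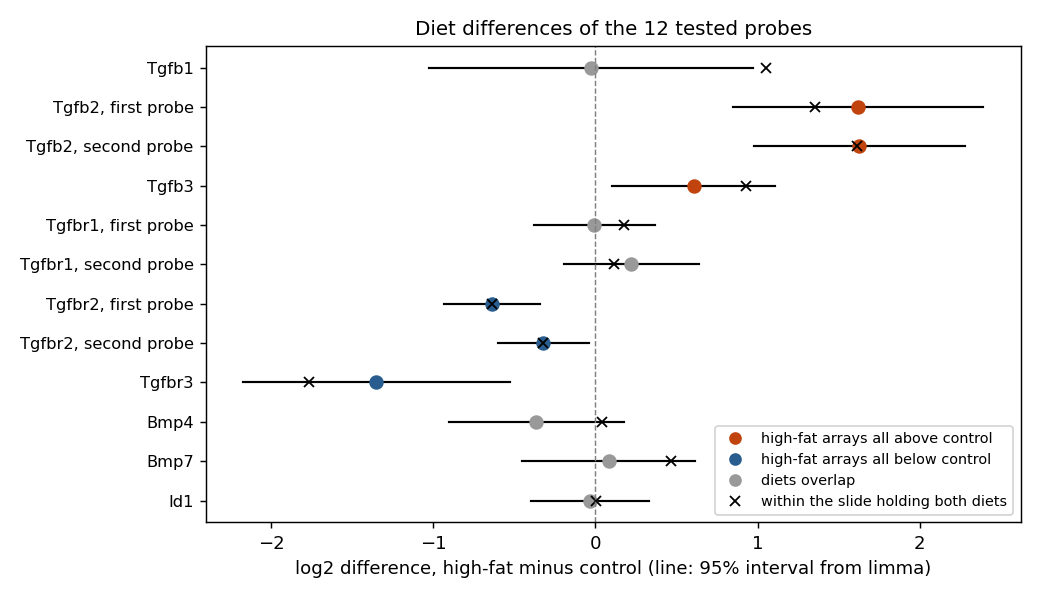
Log2 difference between the diets (x axis, high-fat minus control) for the 12 tested probes, with the 95% interval from limma as a line and the estimate within the slide that held both diets as a cross. Tgfb2 stands at 1.62 and 1.63 and Tgfbr3 at -1.35, Tgfbr2 gives nearly the same value within the slide as over all arrays, and Tgfb1 moves from -0.03 to 1.05.

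The BMP ligands and their target showed no separation. Bmp4 (NM_007554), which comes from stroma in the developing gland, read -2.97, -2.40 and -2.21 on high-fat replicates 1 to 3 and -2.34, -2.02 and -2.12 on control replicates 1 to 3. High-fat replicate 1 was the low array, and the difference of -0.36 (SE 0.22, 95% interval -0.90 to 0.17, adjusted p = 0.468 in limma) was -0.14 without it and 0.04 within the shared slide. Bmp7 (NM_007557), a ligand of epithelia and kidney, read 0.29, 0.02 and 0.38 under high-fat and -0.27, 0.49 and 0.22 under control diet. The control arrays bracketed the high-fat arrays, with a difference of 0.08 (SE 0.22, 95% interval -0.45 to 0.62, adjusted p = 0.870 in limma). It was 0.47 within the shared slide and -0.13 without control replicate 1. Id1 (NM_010495), the inhibitor of basic helix-loop-helix factors that BMP signalling induces, read -0.03, 0.27 and -0.13 under high-fat and 0.07, 0.18 and -0.03 under control diet. The diets overlapped, and the difference was -0.03 (SE 0.15, 95% interval -0.40 to 0.33, adjusted p = 0.926 in limma).

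The pathway around these genes was read from 10 lists by role, 1 probe per gene. Outside the 9 genes, 83 genes were tested, and 0 passed an adjusted p of 0.05 in limma (lowest adjusted p = 0.185). At an unadjusted p under 0.05, 11 were higher (13.3%) and 6 lower (7.23%), beside 6.77% and 6.99% of all probes tested. The median difference was 0.02 over the 83 genes and 0.01 over all probes. Differences were positive in 53% of the 83 genes and in 51.2% of all probes tested. The counts by list below are to be read beside these shares over all probes. No list was tested as a set, and the lists were chosen with earlier results of these data known.

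Among genes of latency and activation, 8 of 10 tested had positive differences, with a median of 0.29, and at an unadjusted p under 0.05 there was 1 higher and 1 lower. The median was 0.19 within the shared slide. After normexp background correction, scaled to the 75th percentile, it was 0.22, where the median of all probes was 0.31. Itgb6, the beta subunit of the epithelial integrin that frees TGF-beta from its latent complex, was higher on every high-fat array. Its level was 0.02, -0.57 and -0.53 on high-fat replicates 1 to 3 and -1.70, -1.39 and -2.59 on control replicates 1 to 3, a difference of 1.53 (SE 0.34, adjusted p = 0.226 in limma). On its second probe it differed by 1.64, and within the shared slide the first differed by 1.16. Emilin1, a matrix protein that limits processing of the TGF-beta precursor, differed by -0.79 (SE 0.29), though by -0.11 within the shared slide. All 5 receptors and co-receptors tested had negative differences, but Tgfbr1 (-0.01) and Eng (-0.09) lay near 0 and changed sign under some alternatives. The median of the 5 was -0.64, and 0.18 within the shared slide. Beside the 3 receptors above, Acvrl1, the endothelial type I receptor, differed by -0.92 (SE 0.52) and Eng, endoglin, by -0.09 (SE 0.23). Both overlapped between diets and were 0.41 and 0.45 within the shared slide.

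Inside the cell, 12 of 14 tested Smads and regulators had positive differences, beside 51.2% of all probes tested, with a median of 0.21. That median was 0.13 within the shared slide. After normexp background correction, scaled to the 75th percentile, it was 0.21, where the median of all probes was 0.31. At an unadjusted p under 0.05, 4 were higher and 0 lower, beside 6.77% and 6.99% of all probes. These 4 include feedback inhibitors that TGF-beta itself induces. Smad7, which blocks the type I receptor, read 1.00, 1.09 and 0.84 on high-fat replicates 1 to 3 and 0.20, 0.75 and 0.30 on control replicates 1 to 3, a difference of 0.56 (SE 0.18, adjusted p = 0.317 in limma). Pmepa1, which withholds SMAD2 and SMAD3 from the receptor, differed by 0.75 (SE 0.23) on both of its probes. Smurf2, a ubiquitin ligase that SMAD7 recruits to the receptor, differed by 0.30 (SE 0.12), and its other probes by 0.59 and 0.37. In these 3 genes no high-fat array overlapped a control array. Zfyve9, the SARA anchor that brings SMAD2 to the receptor, differed by 0.45 (SE 0.19) with overlap, and by 0.07 within the shared slide. Smad9 and Bambi never stood well above background.

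TGF-beta target genes split. Of 16 tested, 5 had positive and 11 negative differences (median -0.23, but 0.29 within the shared slide), with 2 higher and 1 lower at an unadjusted p under 0.05. Ccn2, connective tissue growth factor, read 5.83, 5.22 and 6.003 on high-fat replicates 1 to 3 and 4.54, 5.11 and 4.71 on control replicates 1 to 3. It differed by 0.90 (SE 0.25, adjusted p = 0.290 in limma) and Tagln, the actin-binding protein transgelin, by 0.59 (SE 0.21), both without overlap. Tagln differed by 0.94 within the shared slide, where its lowest array is the only control. Cdkn2b, the cell cycle inhibitor p15, differed by -0.75 (SE 0.29) and, on its second probe, by -0.74. On the first, high-fat replicate 3 (1.95) and control replicate 1 (1.96) nearly touched. Tgfbi, a matrix protein named for its induction by TGF-beta, differed by -0.68 (SE 0.29) with overlap, and by -0.19 within the shared slide. The collagens Col1a1, Col1a2 and Col3a1, which the fibroblast list also holds, differed by -0.63, -0.87 and -1.05 and overlapped between diets.

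On the BMP side, 4 of 10 tested ligands had positive differences (median -0.09, and 0.13 after normexp background correction). Bmp2, a ligand close to Bmp4 in sequence, read -2.99, -1.67 and -1.45 on high-fat replicates 1 to 3 and 0.10, -0.64 and 0.06 on control replicates 1 to 3. It was lower on every high-fat array, with the widest difference of the pathway lists, -1.87 (SE 0.44, adjusted p = 0.239 in limma) and -1.65 within the shared slide. Bmp8a differed by 0.68 (SE 0.15) in the other direction without overlap. Among the 4 receptors, Bmpr1b, a type I receptor, differed by 0.84 (SE 0.28) and by 1.1 on its second probe, and Bmpr2 by 0.32 (SE 0.15). These were 0.39 (Bmpr1b, brighter probe) and 0.55 (Bmpr2) within the shared slide. Acvr1 differed by 0.14 on its brighter probe, with overlap (0.44 within the shared slide), and by 0.45 on its second, without. For Bmpr2 and the brighter Acvr1 probe, the only control of that slide was the lowest array.

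Of 13 extracellular antagonists and modulators, 6 were positive and 7 negative (median -0.16, and 0.03 within the shared slide), and 0 were higher and 2 lower at an unadjusted p under 0.05. Those 2 were Grem1, gremlin, which captures BMP2 and BMP4 (-0.93, SE 0.25), and Bmper, a BMP-binding matrix protein (-0.96, SE 0.26), both without overlap and at -0.82 and -0.90 within the shared slide. Sostdc1, an ectodermal antagonist, was dim and differed by 1.45 (SE 0.62) with high-fat replicate 2 at -3.91 and all other arrays at or below -6.16, and by 0.57 on its second probe. The 9 BMP target genes had a median of 0.0012, or 0.30 after normexp background correction, where the median of all probes was 0.31. Id2, a relative of Id1, read -0.88, -0.80 and -0.70 on high-fat replicates 1 to 3 and 0.04, 0.11 and 0.66 on control replicates 1 to 3. It was lower on every high-fat array, with a difference of -1.06 (SE 0.19, adjusted p = 0.185 in limma), while Id1 overlapped. Hey1, a repressor that Notch signalling also induces, differed by 1.69 (SE 0.52) without overlap, with control replicate 1 lowest at -3.31, and by 3.04 within the shared slide, where that array is the only control.

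In the activin arm, Inhba, whose product forms activin A, read 5.61, 5.48 and 5.85 on high-fat replicates 1 to 3 and 4.59, 5.44 and 4.96 on control replicates 1 to 3. High-fat replicate 2 and control replicate 2 were nearly level, and the difference was 0.65 (SE 0.24, adjusted p = 0.348 in limma). It was 1.07 within the shared slide, where the lowest array is the only control. On their brighter probes the other 8 tested genes of that arm lay between -0.34 and 0.02. Acvr2a differed by -0.02 on that probe and by 0.68 (SE 0.38) on its second, with overlap on both. The median of all 9 was -0.10, or 0.51 after normexp background correction, and Acvr1c and Mstn never stood well above background.

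**Figure D3:**
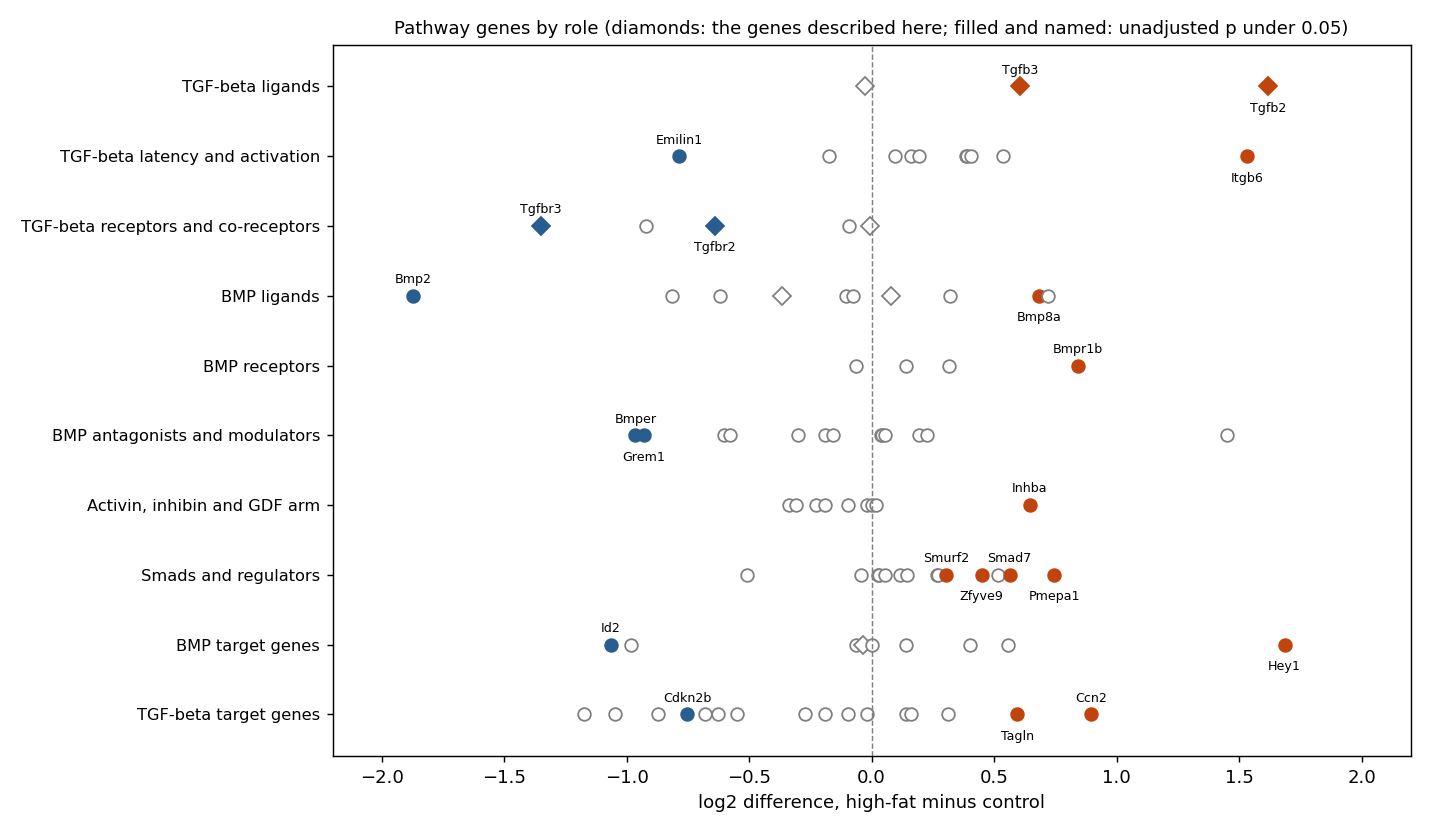
Log2 difference between the diets (x axis, high-fat minus control) for every tested gene of the 10 pathway lists (rows), with diamonds for the 9 genes described here and circles for others; filled, named points have an unadjusted p under 0.05, orange higher and blue lower. Hey1 (1.69), Tgfb2 (1.62), Itgb6 (1.53) and Pmepa1 (0.75) lie to the right, while Bmp2 (-1.87), Tgfbr3 (-1.35) and Id2 (-1.06) lie to the left.

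For the 4 genes whose brighter probe spanned at least 1 log2 unit over the arrays, the nearest profiles were sought among 16380 named genes, by the root-mean-square distance between centred log2 levels over the 6 arrays. Tgfb3 lay nearest to Tagln (distance 0.02) and Inhba (0.07), both of the pathway lists. Tgfb2 lay nearest to Itgb6 (0.19) and to Krt13, a keratin of stratified epithelium (0.20). Tgfbr3 lay nearest to Osr2, a zinc finger factor of mesenchyme (0.14), and to Mt1, a metallothionein (0.15). Tgfb1 lay nearest to Itga5, the fibronectin receptor subunit (0.08), and Kremen1, a receptor for Dickkopf proteins (0.10). These profiles share the same 6 arrays, and nearness was not tested.

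**Figure D4:**
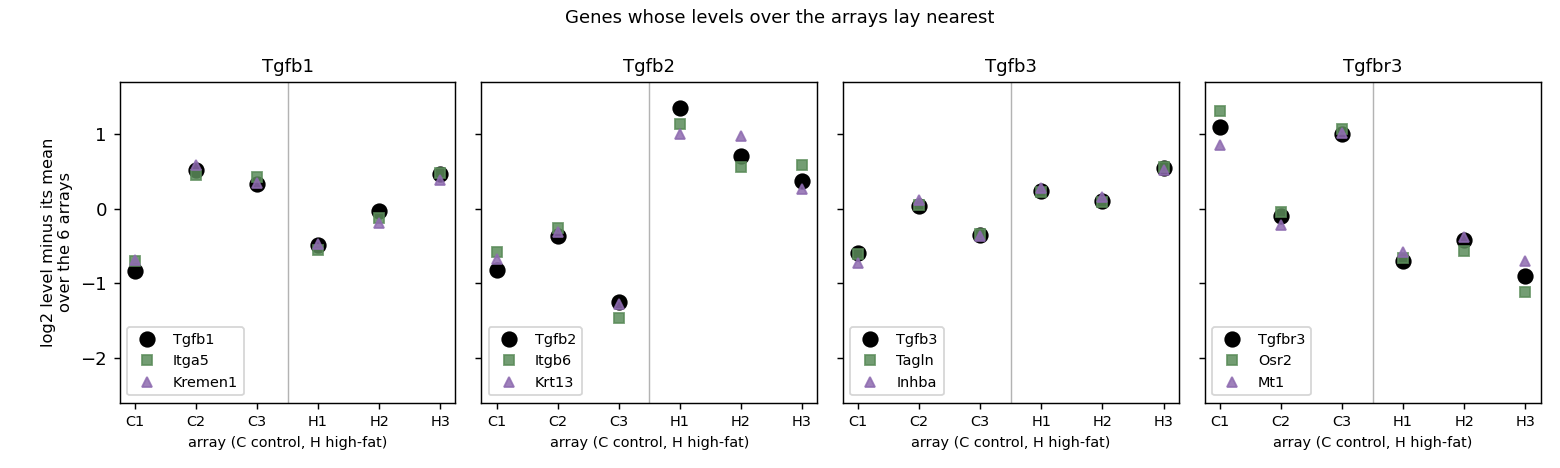
Log2 level minus its mean over the 6 arrays (y axis) on each array (x axis, C for control and H for high-fat, replicates 1 to 3) for 4 genes (black circles) and the 2 genes nearest to each (green squares, purple triangles). Tgfb1 is lowest on control replicate 1 and does not follow diet, whereas Tgfb2 and Tgfb3 lie higher on the high-fat arrays and Tgfbr3 lower.

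Some cell type marker lists also leaned with diet. The genes set beside them here share the direction of the diet difference, and their likeness to the lists over single arrays was not compared. Over all probes tested, 51.2% of differences were positive. Basal and myoepithelial markers, 10 of 10 positive, had list means of 2.50 to 2.73 on high-fat and 1.50 to 1.92 on control arrays, without overlap, beside the higher Tgfb2, Tgfb3 and Itgb6. Fibroblast and matrix markers, 9 of 11 negative, had means of 3.61 to 4.73 under high-fat and 4.35 to 5.17 under control diet, overlapping through high-fat replicate 3. Skeletal muscle markers, 9 of 10 negative, had means of -3.81 to -3.67 and -2.36 to -1.91, without overlap, with Myh3 past the adjusted threshold and Myh2 never well above background. Tgfbr2, Tgfbr3 and Bmp2 were lower beside both the fibroblast and the skeletal muscle list. Luminal markers, 12 of 13 positive, ran from 0.96 to 1.96 under high-fat and 0.75 to 1.28 under control diet. Their part in the results for the 9 genes was not tested.

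The means of the other lists overlapped between diets. The endothelial list ran from -2.60 to -0.73 under high-fat and -3.02 to -1.75 under control diet, and the macrophage list from -3.74 to -3.28 and -3.88 to -3.27. White adipocyte markers had means from -4.48 to -4.12 and -4.83 to -4.35, but 2 of the 10 were higher and 2 lower on every high-fat array. Adipoq, the adipocyte hormone adiponectin, was well above background on 5 of 6 arrays and higher on every high-fat array (-6.21, -5.74 and -5.88 against -7.33, -6.65 and -6.98, a difference of 1.04 with adjusted p = 0.217 in limma). Cfd, the adipocyte protease adipsin, differed by 1.78 (adjusted p = 0.129 in limma) and Pparg, the regulator of fat cell formation, by -1.09 (adjusted p = 0.231 in limma), both without overlap. The T and NK cell list ran from -1.24 to -0.51 and -1.24 to -0.66, with Cd3d, Cd3g and Cd8a never well above background, and the B cell list from -6.77 to -6.34 and -7.08 to -6.32, likewise without Ms4a1. Keratinocyte markers ran from -2.20 to -1.64 and -2.36 to -1.67, without Dsg1a, and Schwann cell markers from -2.54 to -2.42 and -2.45 to -2.38. Single markers without overlap numbered 1 of 10 endothelial, 1 of 5 T and NK cell and 1 of 5 keratinocyte genes, all higher. Among Schwann cell genes they were 2 of 6, both lower. Beside these counts and those of the adipocyte list, 9.25% of all probes tested lay higher and 8.22% lower without overlap.

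**Figure D5:**
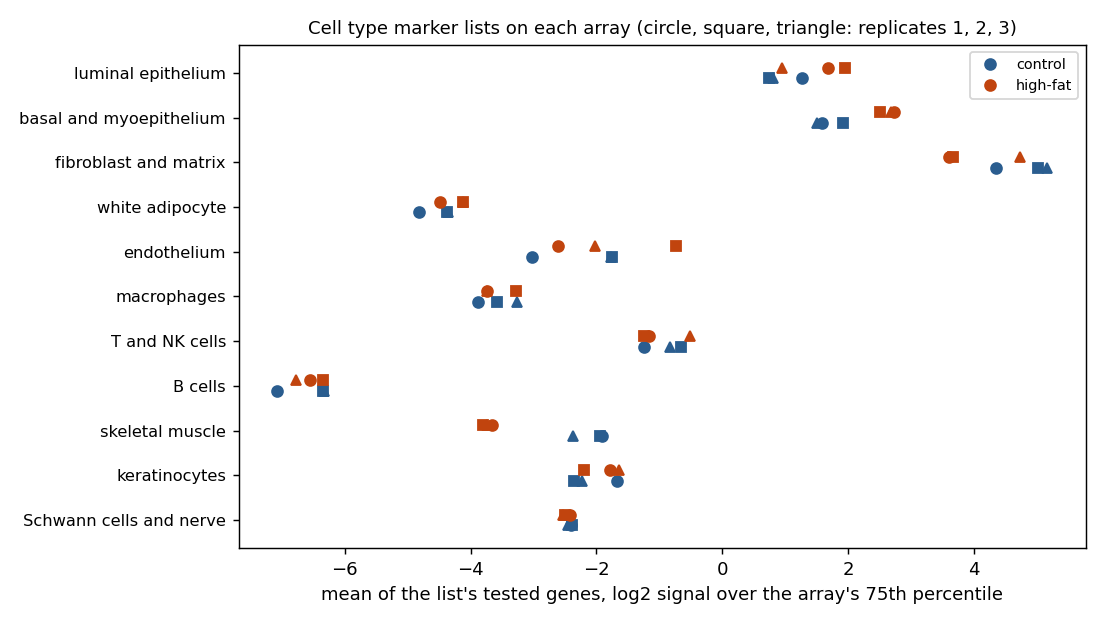
Mean level of the tested genes of each cell type marker list (rows) on each array (x axis, log2 signal over the array's 75th percentile), with blue for control and orange for high-fat diet and circles, squares and triangles for replicates 1, 2 and 3. The diets part on the basal list (high-fat from 2.50) and the skeletal muscle list (high-fat up to -3.67) and overlap on the others.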

How the data were processed

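RNA of 6 mammary samples was read on 6 Agilent arrays. Per the file headers, Agilent Feature Extraction 11.0.1.1 made the deposited scanner files, whose processed signal is a linear intensity after background subtraction and detrending, on an array design of an older mouse build. The deposited value table also holds linear intensity: 99.9% of them equalled the processed signal times a constant of the array within 1%, the constant being near the inverse of the 75th percentile, and its column medians were 0.134 to 0.140. Control spots and flagged outliers were left out, spots of a probe were averaged, and 111 probes lacking a usable spot on some array were dropped. Of 39429 probes, 27427 matched 1 symbol through RefSeq accessions and 12002 none.

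Levels are log2 of the processed signal minus the array's 75th percentile. The 28687 probes that stood well above background on 3 or more of the 6 arrays were fitted with limma 3.58.1 in R 4.3.3 (lmFit, eBayes, two-sided, Benjamini-Hochberg over all probes, threshold 0.05). Data for this comparison were also simulated with 28687 probes, of which only a small share was changed. There 32.4% of log2 changes of 1 and 75.2% of changes of 2 were recovered, and such recovery depends on the share changed. False calls made up 6.04% of all calls there. The simulation drew independent normal noise for each probe, with no slide effect. It therefore cannot give the recovery on the real arrays, where only 1 slide held both diets. The genes and lists were chosen with earlier results of these data known. Named genes are all 9 genes, up to 4 others per pathway list by p, 2 nearest profiles per gene and defining markers. Genes beyond that rule (the collagens, Adipoq, Cfd, Pparg, Acvr1c, Acvr2a, Mstn, Smad9, Bambi) were named after their values were seen. Alternatives were the deposited value table (which holds neither Bmp7 nor Id1), normexp background, quantile scaling, other filters or a floor on dim probes, 1 probe a gene, a robust trended variance, slide or replicate number as a block, and leaving out each array. Probe sequences were not used here, and a gene of the target list is not reported here.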

Additional observations from a re-analysis of the deposited data

How the results depend on the processing

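Over 17 alternatives, both Tgfb2 probes (1.18 to 1.89), Tgfb3 (0.46 to 0.93), both Tgfbr2 probes (-0.78 to -0.06) and Tgfbr3 (-1.77 to -1.13) kept their direction wherever they could be computed. Most alternatives could not have changed it. The diets did not overlap on these probes, so leaving out an array or adding a block keeps the sign. Filters, the floor and the variance setting left the differences as they were. Only normexp background and quantile scaling could have turned the direction. No probe of the 9 genes passed an adjusted p of 0.05 in any alternative (lowest adjusted p = 0.0937 in limma, Tgfb2 without high-fat replicate 3). The probes past the threshold, 5 at first, were 0 without a filter on dim probes, 0 after normexp background correction scaled to the 75th percentile, 0 with slide as a block, 8 with normexp and quantile normalization, 8 among probes well above background on all arrays, and 0 to 122 when an array was left out, 122 without high-fat replicate 3. Whether the replicate numbers pair the mice could not be settled. Deviations from the diet means correlated at 0.338, -0.139 and 0.253 between same-numbered arrays, and the replicate block gave 0 probes. The cause of these changes was not tested. Genes near 0 changed sign. Tgfb1 was 0.0096 with quantile normalization, 0.0047 with normexp and quantile normalization and 1.05 with slide as a block; Tgfbr1 was 0.0049, 0.019 and 0.18. Bmp4 was 0.0042 with normexp and the 75th percentile and 0.0404 with slide as a block, and Id1 0.0013 there. Leaving out an array gave -0.45 to 0.23 for Tgfb1, -0.13 to 0.0682 for Tgfbr1, -0.13 to 0.25 for Bmp7, -0.15 to 0.0506 for Id1, -0.2665 to 0.1027 for Eng, -0.0046 to 0.273 for Acvr1 and -0.16 to 0.0138 for Bmpr1a. With normexp and the 75th percentile Inha was 0.51 and Acvr1b 0.58. With slide as a block Ltbp1 was -0.0224, Acvrl1 0.41, Eng 0.45, Bmpr1a 0.15, Inhbb 0.0064 and Id3 -0.18. Dim probes are limited by signal over background.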
